A study of Mus musculus with 18 samples.

Results

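The ileum of suckling mice was compared between postnatal day 11 and postnatal day 4. The comparison took the 3 arrays of day 11 and the 3 arrays of day 4, 6 of the 18 arrays of the series, and all genes measured on them. The other ages were days 7, 9, 24 and 32, and the 6 arrays of days 7 and 9 were used to see whether a gene passed through intermediate levels. Each array held RNA of the ileum, the last stretch of the small intestine, of 1 C57BL/6 mouse, an inbred laboratory strain. The labels name no engineered allele and no treatment, and the groups differ by age. The pieces contained every layer of the gut wall, so epithelium, muscle, nerve, vessels and attached fat could all contribute RNA. Levels are log2 RMA values of Affymetrix probe sets, and a difference of 1 is 2-fold. A gene was represented by 1 probe set, and 8630 of 18193 genes reached a level of 6 on at least 3 of the 18 arrays and were tested.

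In the first weeks of life the mouse gut lives on milk. Enterocytes of this age take up milk fat and whole macromolecules, and the crypts of Lieberkühn, with their stem cells and their antimicrobial Paneth cells, form after birth. The cytosolic fatty acid binding proteins carry lipids inside enterocytes, and the ileal member carries bile acids.

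The epithelial markers Vil1 and Cdx2 were bright on the 12 arrays of days 4 to 11, with levels from 10.63 to 10.88 and from 8.45 to 9.24. Slc10a2, the apical bile acid importer that marks the adult ileum, lay between 2.00 and 2.28 on those arrays, below the array medians of 3.88 to 3.97. The defining acinar markers Cpa1 (2.86 to 3.46) and Cela2a (2.42 to 2.90) were dim as well. Of the defining liver markers Alb (2.91 to 3.62) and Ahsg (2.75 to 3.24) were dim, while Fga lay at 5.29 to 6.47. Of the T cell markers Cd3g (3.53 to 4.06) and Cd8a (3.82 to 4.22) were near the array medians and Cd3e above them (4.73 to 5.13). Across probe sets, correlations within an age were at least 0.983, and arrays of day 4 correlated with those of day 11 at 0.982 to 0.993. Xist, the female transcript of the inactive X chromosome, was low and the Y-linked Eif2s3y high on 1 of 3 arrays at each end, day 4 replicate 3 and day 11 replicate 2. Hybridization control probe sets were brighter on day 4 replicates 1 and 2 and day 11 replicate 1 than on the other arrays of these ages. Day 11 replicate 1 and day 4 replicate 1 also had the lowest array weights in limma (0.33 and 0.39). The labels name neither a batch nor a litter. The titles carry a number for each array, and 1 number stands on both day 7 replicate 3 and day 9 replicate 2, without a statement of what it marks.

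Day 11 differed from day 4 in 249 of 8630 genes (limma, Benjamini-Hochberg adjusted p under 0.05), which is 2.89% of the genes tested. Of these, 116 rose (1.34%) and 133 fell (1.54%), with 20 and 13 of them changed at least 2-fold. Among the genes that rose were the antimicrobial Paneth cell products Itln1, Defa39 and Lyz1 (3 of 9 Paneth cell genes tested) and Car3, Adipoq and Lpl (3 of 8 adipocyte genes). Among those that fell were the fatty acid binding proteins Fabp6, Fabp1 and Fabp2, 3 of 36 cell cycle genes and 2 of 12 imprinted growth genes. The median difference over all genes was -0.03. The arrays of the 2 ages did not overlap for any of the 249 genes, and for 1819 of the 8630 genes (21.1%) in all. The call divides neighbouring genes finely, with Ube2c, Cib1 and Med10 just inside at an adjusted p of 0.0496 and Bri3 and Atp11a just outside at 0.0501. The number of calls depended on single arrays. Without day 4 replicate 2 it was 50 higher and 42 lower, without day 4 replicate 3 it was 51 and 34, without day 11 replicate 1 it was 61 and 38, and without day 11 replicate 2 it was 64 and 69. Without both arrays of lowest weight, a choice made after the weights were seen, 91 genes rose and 59 fell. Of the 249 genes, 66 were called without each of the 6 arrays in turn.

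Most genes called between the end ages lay between them on days 7 and 9. The means of both inner ages fell between those of days 4 and 11 for 97 of 116 genes that rose (83.6%) and for 104 of 133 that fell (78.2%), against 2750 of all 8630 genes (31.9%). The 4 means stood in order of age for 81 and 94 genes, against 1755 of all genes (20.3%). These shares use the arrays of days 4 and 11 that chose the genes. The difference between days 9 and 7 uses none of them. Day 7 replicate 3 had bright hybridization controls (9.62) and low Xist (4.69). The day 9 arrays had dimmer controls (8.89 to 9.05) and high Xist (9.64 to 10.02). The part of this imbalance in the difference was not tested. Day 9 lay above day 7 for 97 of the 116 genes that rose and for 16 of the 133 that fell, and for 53.5% of all genes. The median difference of day 9 minus day 7 was 0.14 for the genes that rose, -0.13 for those that fell and 0.01 for all genes. By day 7 the genes that rose had covered a median of 52.2% of their way and those that fell 36.7%. By day 9 the medians were 76.5% and 56.5%. These medians, too, use the end arrays that chose the genes. Over all genes they were 38.5% by day 7 and 54.6% by day 9. Genes not called read 69.0% and 94.5% where the day 11 mean was higher, and 17.4% and 26.2% where it was lower. Rises thus ran ahead of falls among genes not called as well.

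**Figure D1:**
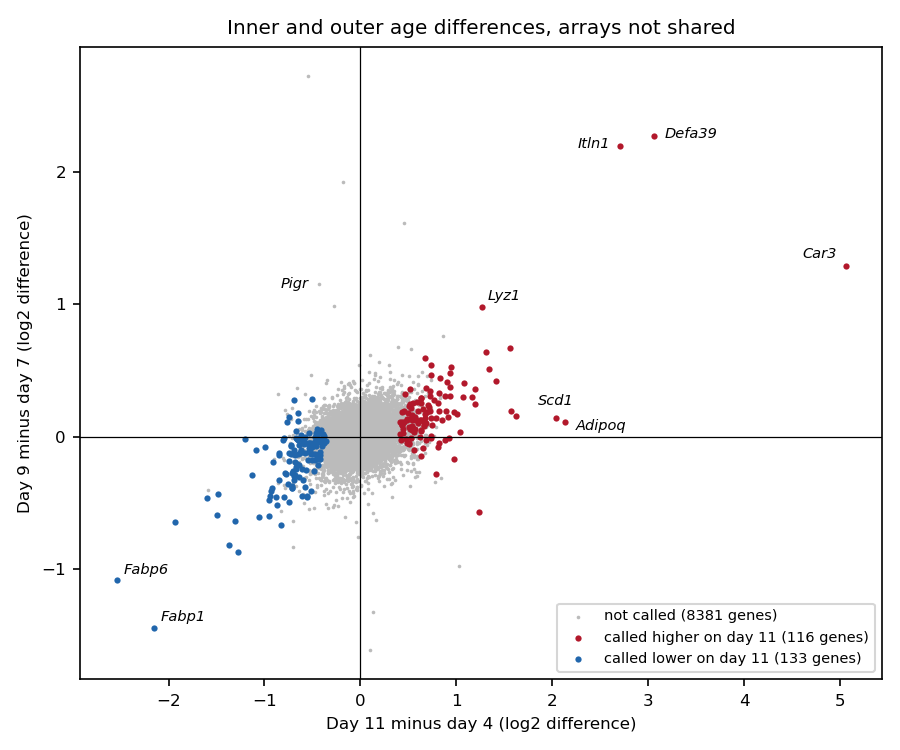
Each point is 1 of 8630 genes, with its log2 difference of day 11 minus day 4 on the horizontal axis and of day 9 minus day 7 on the vertical axis. Red points, the 116 genes called higher on day 11, lie mostly above 0 on the vertical axis (97 genes), and blue points, the 133 genes called lower, mostly below it (117 genes). Grey points were not called.

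Few genes were called for the inner against the end ages. The mean of days 7 and 9 differed from the mean of days 4 and 11 for 3 genes (0.0348% of those tested, limma, 558 at an unadjusted p under 0.05), of which 2 were higher (0.0232%) and 1 lower (0.0116%). The contrast takes the mean of both inner ages, so a gene low on one and high on the other goes unseen by it, and genes not called are not shown to lie between the ends. Anxa8, a calcium-dependent membrane-binding annexin, was higher at the inner ages by 0.75 ± 0.11 (SE, adjusted p = 0.0112). Its levels were 6.61, 6.24 and 6.48 on day 4, 7.36, 7.69 and 7.60 on day 7, 7.01, 6.92 and 6.99 on day 9 and 6.39, 6.91 and 6.44 on day 11, so that every inner array exceeded every end array. The end ages differed in Anxa8 by 0.13 ± 0.16 (adjusted p = 0.697). Rsrp1, an arginine- and serine-rich protein gene, was higher by 0.62 ± 0.10 (adjusted p = 0.0381), having risen from a mean of 9.06 on day 4 to 10.06 on day 7 and lying at 9.98 on day 11. Itln1 was lower at the inner ages by 0.74, as described next. These 3 calls are not firm. Without day 4 replicate 2, no gene was called in either direction, and likewise without day 7 replicate 2, day 9 replicate 1 or day 11 replicate 3.

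Among genes of Paneth cells, the crypt-base cells that secrete antimicrobial proteins, 3 of 9 tested members rose, 1 fell and 5 did not pass the test (median 0.35). Itln1, an intelectin lectin that binds microbial sugars, had levels of 5.40, 5.75 and 6.05 on day 4 and 8.42, 8.16 and 8.74 on day 11. Its difference was 2.71 ± 0.15 (SE, n = 3 against 3, limma adjusted p = 1.05e-08). The inner arrays read 5.29, 5.23 and 5.24 on day 7 and 7.34, 7.53 and 7.46 on day 9, so day 7 lay under all arrays of day 4 and day 9 between the ends. Defa39, an alpha-defensin that kills bacteria, had 5.76, 5.04 and 5.81 on day 4, 5.67, 5.60 and 5.58 on day 7, 7.96, 7.86 and 7.83 on day 9 and 8.91, 8.16 and 8.72 on day 11. Days 4 and 7 overlapped, and by day 9 the mean had covered 76.6% of the difference of 3.06 ± 0.19 (adjusted p = 1.77e-08). Probe sets of near-identical alpha-defensins can read each other's transcripts, so the Defa39 signal may include relatives, as that of Lyz1 may include the related lysozyme Lyz2.

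Lyz1, the Paneth cell lysozyme that cleaves bacterial cell walls, had 9.00, 8.81 and 9.19 on day 4, 8.77, 8.73 and 8.63 on day 7, 9.61, 9.89 and 9.57 on day 9 and 10.28, 10.16 and 10.36 on day 11. The day 7 arrays were under all of day 4 and the day 11 arrays above all others, and its difference was 1.26 ± 0.12 (adjusted p = 7.37e-06). The lower means on day 7 than on day 4 did not pass the test, at -0.29 for Lyz1 (adjusted p = 0.729) and -0.48 for Itln1 (0.468). In the step from day 7 to day 9 these 3 genes were 3 of the 4 called (0.0463% of those tested, limma). That step was 2.19 ± 0.15 for Itln1 (adjusted p = 3.52e-07), 2.27 ± 0.19 for Defa39 (2.38e-06) and 0.98 ± 0.12 for Lyz1 (0.000433). From day 9 to day 11 Itln1 rose further, by 1.00 ± 0.15 (adjusted p = 0.0196), and the differences of 0.72 for Defa39 (0.368) and 0.57 for Lyz1 (0.122) did not pass. The other gene was Pigr, the receptor that carries IgA across the epithelium, which was 1.15 ± 0.15 higher on day 9 than on day 7 (0.000912). Pigr had 8.96, 9.56 and 9.20 on day 4, 8.71, 8.35 and 8.34 on day 7, 9.54, 9.87 and 9.45 on day 9 and 8.87, 8.70 and 8.86 on day 11. Its mean was lowest on day 7 and highest on day 9, and days 11 and 4 differed by -0.43 (adjusted p = 0.130, and 0.0477 without day 4 replicate 1). Mptx1, a mucosal pentraxin named after its value was seen, fell by 0.96 (adjusted p = 0.026), from a mean of 7.56 on day 4 through 7.06 and 6.46 to 6.61 on day 11. The Mptx1 call was lost without day 4 replicate 2 (adjusted p = 0.136), day 4 replicate 3 (0.101), day 11 replicate 1 (0.0923) or day 11 replicate 2 (0.0678). The members that did not pass included, also named after their values were seen, Ang4, an angiogenin (0.10, adjusted p = 0.892), Mmp7, the protease that activates defensins (0.40, 0.234), and Pla2g2a, a bactericidal phospholipase (0.35, 0.269). Fewer cells of a type and less RNA per cell cannot be told apart in these bulk samples.

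Among the stem cell and Wnt-responsive genes of the crypt, 2 of 10 rose and 0 fell (median 0.28, all 10 above 0). Lgr5, the receptor that marks intestinal stem cells, had 5.80, 5.25 and 5.54 on day 4, 5.99, 5.68 and 6.47 on day 7, 6.07, 6.43 and 6.38 on day 9 and 7.25, 6.55 and 6.37 on day 11. Its means stood in order, and day 11 exceeded day 4 by 1.19 ± 0.22 (adjusted p = 0.00638) without overlap. Tnfrsf19, another Wnt target of crypt cells, rose by 0.63 ± 0.15 (adjusted p = 0.027), with both inner means between the ends. The Tnfrsf19 call was lost without any of 4 arrays, with adjusted p-values of 0.0682 without day 4 replicate 1, 0.0914 without day 4 replicate 2, 0.0763 without day 11 replicate 1 and 0.0892 without day 11 replicate 3. Olfm4, a secreted stem cell marker named after its value was seen, differed by 0.61 (adjusted p = 0.058). Of 19 goblet cell genes none was called, with a median of -0.00 that turned to 0.02 under quantile normalization.

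Of 36 genes of the cell cycle and DNA replication 0 rose and 3 fell (median -0.26), and 34 lay below 0. Cenpa, the histone of centromeres, had 7.17, 7.15 and 7.13 on day 4 and 6.62, 6.42 and 6.49 on day 11, a fall of 0.64 ± 0.10 (adjusted p = 0.00279). Ccnb2, a mitotic cyclin, had 7.79, 7.52 and 7.72 on day 4 and 6.97, 7.15 and 7.10 on day 11, a fall of 0.61 ± 0.11 (adjusted p = 0.00462). In both genes the groups were well apart, and days 7 and 9 lay between them in order. Ube2c, the ubiquitin-conjugating enzyme that ends mitosis, fell by 0.55 ± 0.15 (adjusted p = 0.0496) and had its lowest mean on day 9. The Ube2c call was lost without any of 5 of the 6 arrays, with adjusted p-values from 0.0782 without day 4 replicate 1 to 0.194 without day 11 replicate 1. By medians, the list's difference lay mostly in a single interval. The list's median was 0.05 from day 4 to day 7, -0.30 from day 7 to day 9 and -0.02 from day 9 to day 11. On day 9, 34 of 36 members had a lower mean than on day 7, but no gene tested was called lower in that step (0 of 8630, limma).

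**Figure D2:**
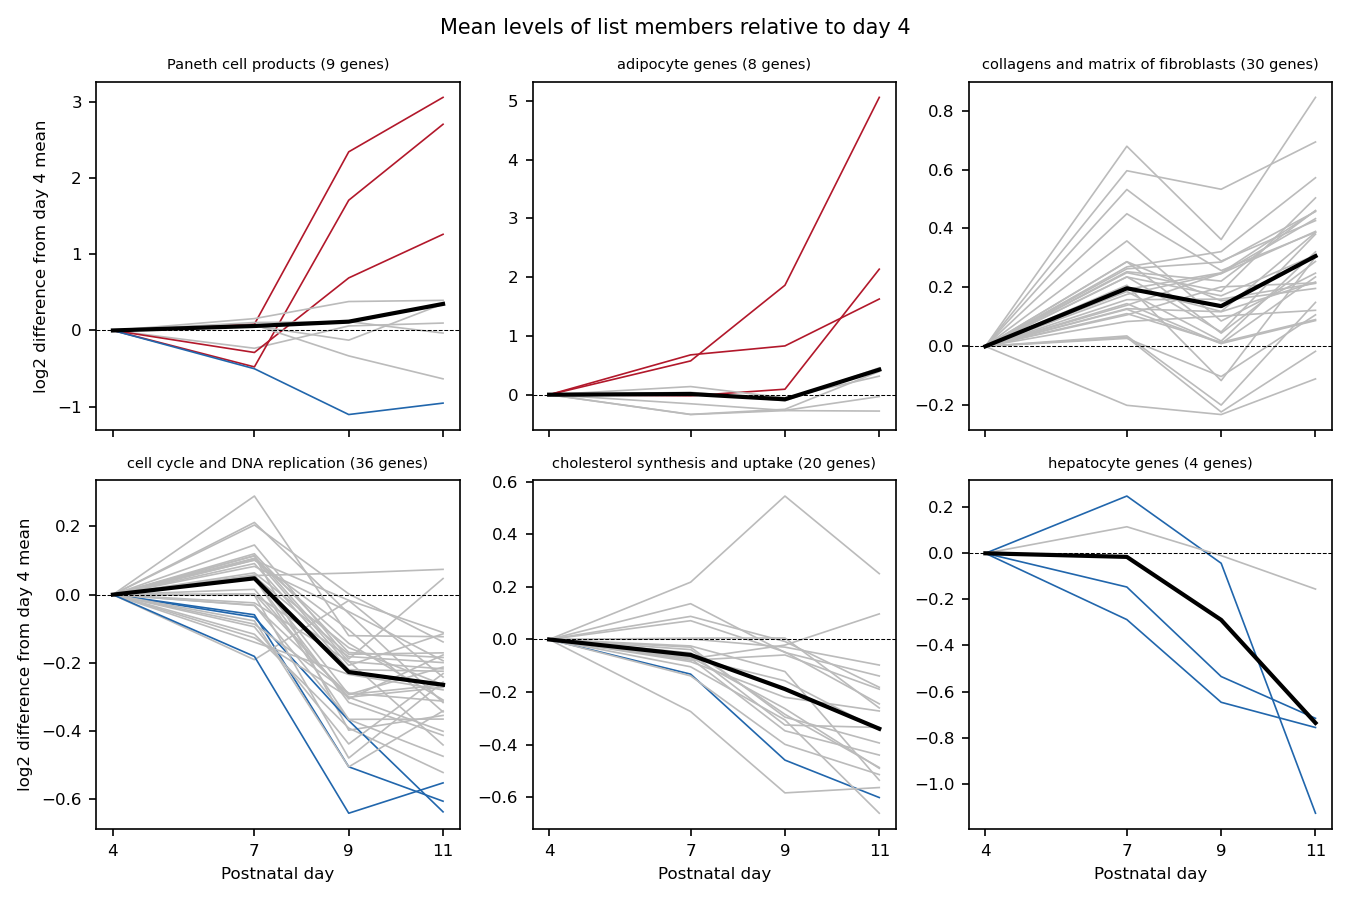
Mean log2 level of each list member on days 4, 7, 9 and 11 (horizontal axis), as the difference from its own mean on day 4 (vertical axis), for 6 gene lists, with 3 arrays an age. Red and blue lines are genes called higher or lower on day 11 than on day 4, grey lines genes not called, and the black line is the list's median, which drops between days 7 and 9 for the cell cycle genes. Vertical scales differ between panels.

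Fabp6 and Fabp1, both fatty acid binding proteins, had the 2 largest falls. Fabp4, the relative of fat cells and named after its value was seen, differed by 0.46 and was not called (adjusted p = 0.187). The 150 bases before the annotated start of Fabp1, Fabp2 and Fabp6 are shown because these 3 relatives fell, and that of Lyz1 because it rose. The sequences are from RefSeq on GRCm38.p6 and read 5′ to 3′ on the gene's strand. Capitals mark matches on either strand to TTTATG, a core recognised by caudal-type homeobox factors, to CAAAGT, a half-site of HNF4, and to TATAAA, the TATA box.
Fabp1, chr6:71199729-71199878, plus strand: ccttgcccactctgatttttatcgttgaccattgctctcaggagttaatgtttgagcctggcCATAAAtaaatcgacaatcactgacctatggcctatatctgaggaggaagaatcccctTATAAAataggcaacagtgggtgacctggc
Fabp2, chr3:122894922-122895071, plus strand: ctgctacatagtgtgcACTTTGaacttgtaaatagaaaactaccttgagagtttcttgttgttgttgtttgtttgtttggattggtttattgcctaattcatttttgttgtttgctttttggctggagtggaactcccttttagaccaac
Fabp6, chr11:43601563-43601712, minus strand: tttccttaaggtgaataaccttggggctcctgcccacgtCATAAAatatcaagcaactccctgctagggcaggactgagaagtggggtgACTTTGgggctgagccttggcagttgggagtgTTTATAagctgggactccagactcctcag
Lyz1, chr10:117292869-117293018, minus strand: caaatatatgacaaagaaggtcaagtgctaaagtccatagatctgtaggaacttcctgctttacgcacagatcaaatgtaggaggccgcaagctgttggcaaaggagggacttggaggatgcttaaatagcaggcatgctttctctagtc
Matches to TTTATG and TATAAA stood in the windows of Fabp1 and Fabp6, matches to CAAAGT in those of Fabp2 and Fabp6, and none in that of Lyz1. Over 32851 promoter windows of this length 6.33% held TTTATG, 7.04% CAAAGT and 7.57% TATAAA. The motifs overlap in none of the windows shown. A match is a string of letters and shows no binding.

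Fabp6, the ileal bile acid binding protein, had levels of 8.25, 8.38 and 8.28 on day 4, 7.83, 7.25 and 7.61 on day 7, 7.15, 6.23 and 6.05 on day 9 and 5.64, 5.34 and 6.31 on day 11. All 6 inner arrays lay between the end means. The difference of -2.54 ± 0.25 corresponds to a 5.81-fold lower level (adjusted p = 1.35e-05), and 72.0% of it was reached by day 9. Fabp1, the liver-type protein that binds long-chain fatty acids, had 12.70, 12.75 and 12.14 on day 4, 11.36, 11.32 and 11.81 on day 7, 9.77, 10.46 and 9.93 on day 9 and 10.21, 10.14 and 10.78 on day 11. It reached its lowest mean on day 9, where its level overlapped with day 11, and days 11 and 4 differed by -2.15 ± 0.33 (adjusted p = 0.00183). Fabp2, the intestinal-type protein, had 13.04, 13.07 and 12.91 on day 4 and 12.17, 12.31 and 12.40 on day 11, with means of 12.65 on day 7 and 12.26 on day 9. Its difference of -0.72 ± 0.10 was the smallest of the 3 (adjusted p = 0.000807), and days 9 and 11 overlapped.

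Around these proteins, 3 of 22 genes that assemble lipoproteins and absorb fat fell and 0 rose (median -0.24), namely Fabp1, Fabp2 and Apoc2. Apoc2, the cofactor of lipoprotein lipase, fell by 0.77 ± 0.19 (adjusted p = 0.0333) from a mean of 12.05 on day 4 to 11.16 on day 9 and 11.27 on day 11. Its call was lost without any of 4 arrays, with an adjusted p of 0.163 without day 4 replicate 2, 0.115 without day 4 replicate 3, 0.126 without day 11 replicate 1 and 0.0871 without day 11 replicate 2. Of 11 genes of ileal bile acid handling 2 fell, Fabp6 and Slc51b, a subunit of the basolateral bile acid exporter, and 0 rose. The list's median of 0.00 changed sign under other scalings. Slc51b fell by 0.59 ± 0.14 (adjusted p = 0.0286), nearly all of it by day 7, where its mean was 7.69 against 8.23 on day 4 and 7.64 on day 11. The Slc51b call was lost without day 4 replicate 2 (adjusted p = 0.136), day 4 replicate 3 (0.0853), day 11 replicate 1 (0.128) or day 11 replicate 2 (0.0619). Fgf15, the ileal hormone that restrains bile acid synthesis in the liver, had 7.65, 8.0 and 8.18 on day 4, 7.06, 7.61 and 7.12 on day 7, 7.41, 7.84 and 8.0 on day 9 and 8.51, 8.63 and 8.62 on day 11. Its day 11 arrays were the highest of the 12, yet the difference of 0.65 ± 0.41 did not pass the test (adjusted p = 0.426). Slc10a2 differed by -0.20 (adjusted p = 0.622) at levels below the array medians.

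The remaining large falls were mostly complete by day 9. Abhd3, a phospholipase, had 9.19, 8.90 and 8.44 on day 4, 7.40, 7.49 and 7.74 on day 7, 6.45, 7.12 and 7.13 on day 9 and 6.45, 7.16 and 7.12 on day 11. Days 9 and 11 overlapped, and the difference of -1.94 ± 0.24 (adjusted p = 0.000246) was covered to 67.3% by day 7. Sectm1b, a secreted and transmembrane protein, had 8.06, 8.56 and 8.23 on day 4 and 6.52, 6.61 and 6.94 on day 11, with means of 7.07 on day 7 and 6.60 on day 9. Its fall was 1.59 ± 0.17 (adjusted p = 4.60e-05). These 2 genes were among the 7 called already between days 4 and 7 (0.0811% of those tested, limma), at -1.30 ± 0.24 (adjusted p = 0.0493) and -1.21 ± 0.17 (0.00655). Bst1, an ectoenzyme that makes cyclic ADP-ribose, fell by 1.49 ± 0.24 (adjusted p = 0.00284) through means of 8.52, 7.77, 7.18 and 7.03.

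Asah2, Paqr9 and Cdr2 had lower means on day 9 than on day 11. Asah2, the neutral ceramidase of the brush border that digests milk sphingolipids, had 9.13, 9.77 and 9.17 on day 4, 8.64, 8.46 and 8.41 on day 7, 7.56, 7.86 and 7.49 on day 9 and 8.0, 7.96 and 8.31 on day 11. Each array of day 9 was below each of day 11, although days 11 and 4 differed by -1.27 ± 0.24 (adjusted p = 0.00795). That call was lost without day 4 replicate 2 (adjusted p = 0.0543). Paqr9, a membrane progestin receptor, had means of 7.58, 6.45, 5.63 and 6.22 and a difference of -1.37 ± 0.24 (adjusted p = 0.00459). Cdr2, a coiled-coil protein, had means of 9.09, 8.06, 7.42 and 7.78 and a difference of -1.31 ± 0.22 (adjusted p = 0.00384). Its day 11 arrays spread from 7.15 to 8.41, across all arrays of day 9. None of the 3 passed the test of inner against end ages, with adjusted p-values of 0.285, 0.0945 and 0.178. Cela1, an elastase, fell by 1.49 ± 0.29 (adjusted p = 0.00954) with means of 7.45, 6.49, 6.06 and 5.96 in order. The Cela1 call was lost without day 4 replicate 2 (adjusted p = 0.0651) or day 11 replicate 1 (0.0565). Mt1, a metal-binding metallothionein, had 12.25, 12.19 and 12.05 on day 4 and 11.30, 10.71 and 10.87 on day 11, with 12.08 and 12.06 as means on days 7 and 9, so nearly all of its difference lay after day 9. Its difference of -1.21 ± 0.32 was called at an adjusted p of 0.0496, and the call was lost without any of the 6 arrays (adjusted p = 0.0718 to 0.146).

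**Figure D3:**
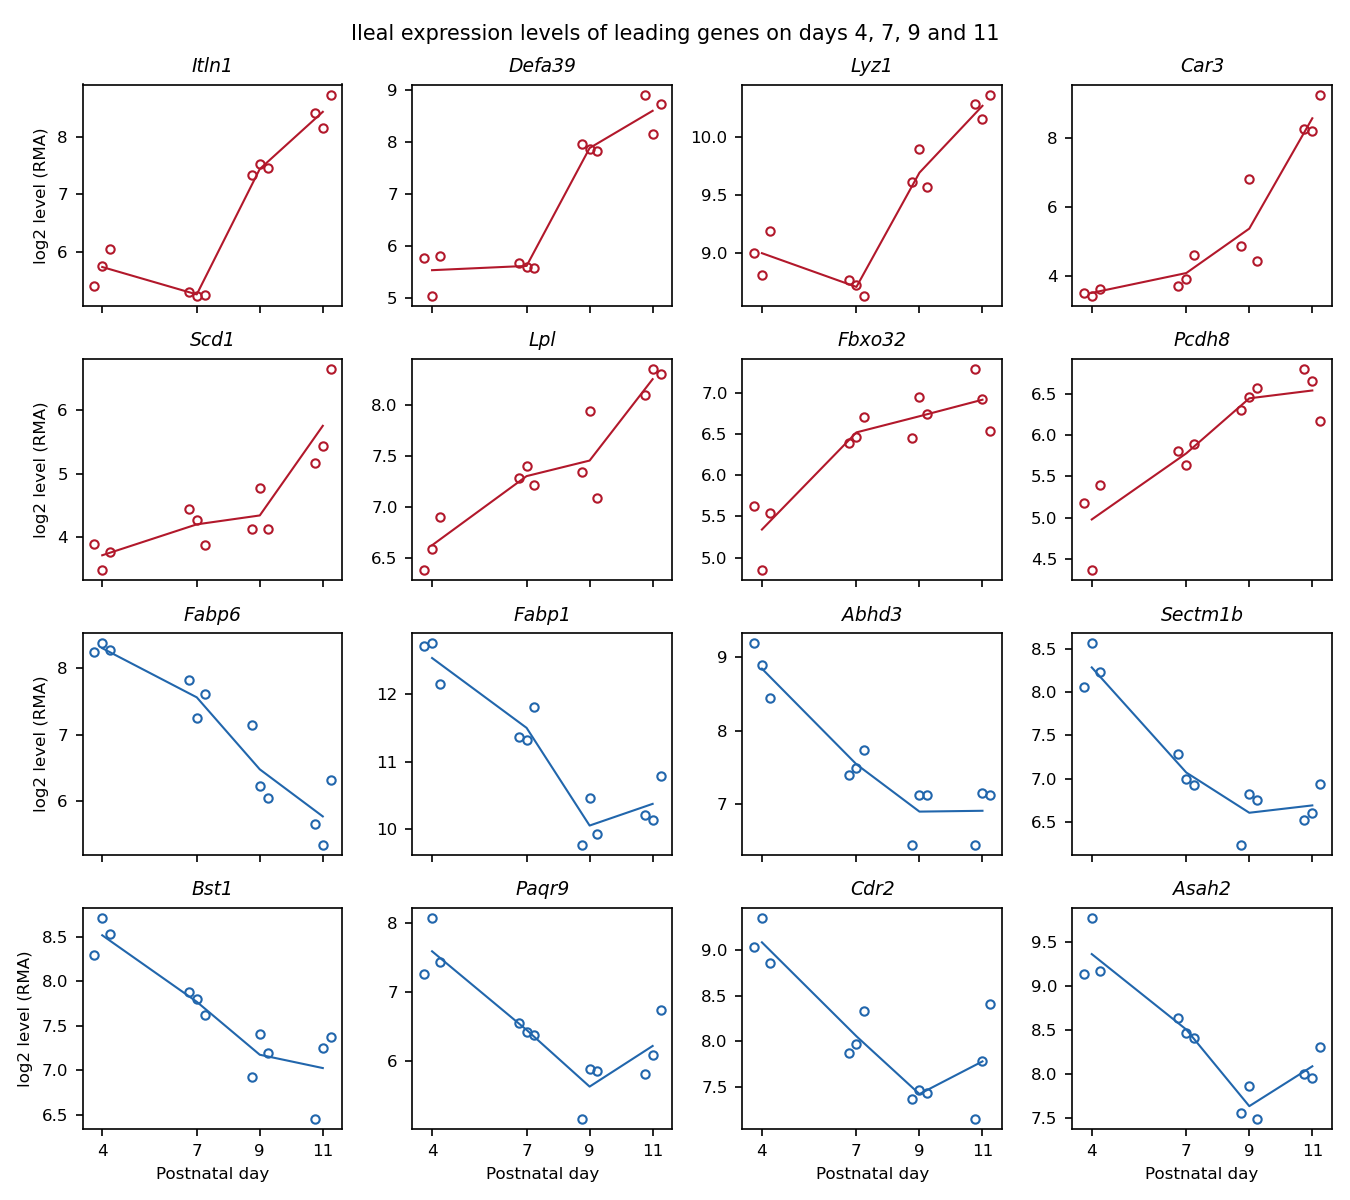
Log2 RMA level (vertical axis) of 16 genes on each of 12 arrays by postnatal day (horizontal axis), with open circles for arrays and a line through the means of 3 arrays. Red genes were called higher and blue genes lower on day 11 than on day 4. Itln1, Defa39 and Lyz1 step up between days 7 and 9, Car3 is highest on day 11, and Abhd3 and Sectm1b level off after day 9. Vertical axes differ between genes and do not start at 0.

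Of 8 adipocyte genes tested 3 rose, 0 fell and 5 did not pass the test (median 0.43). Car3, a carbonic anhydrase abundant in fat and muscle, had 3.50, 3.42 and 3.62 on day 4, 3.72, 3.93 and 4.62 on day 7, 4.87, 6.82 and 4.44 on day 9 and 8.25, 8.21 and 9.26 on day 11. All 6 inner arrays lay between the end means. The day 4 arrays lay under the array medians of 3.88 to 3.97, so the size of the measured difference, 5.06 ± 0.44 (adjusted p = 4.30e-06), depends on the background correction and is not ranked here against other genes. Between days 9 and 11 Car3 rose by 3.20 ± 0.44 (adjusted p = 0.0105). A second probe set of Car3 differed by 2.25. Adipoq, the fat hormone adiponectin, had 2.53, 2.71 and 2.44 on day 4 and 3.80, 4.27 and 6.02 on day 11, while days 7 and 9 had means of 2.54 and 2.65. For Adipoq, too, day 4 lay under the array medians. Its difference was 2.14 ± 0.42 (adjusted p = 0.0101), with the means of days 7 and 9 near that of day 4, and the call was lost without day 4 replicate 3 (adjusted p = 0.0536). Lpl, the lipase that frees fatty acids from lipoproteins, had 6.38, 6.59 and 6.91 on day 4, 7.29, 7.41 and 7.22 on day 7, 7.35, 7.94 and 7.09 on day 9 and 8.11, 8.36 and 8.31 on day 11. It rose by 1.63 ± 0.29 (adjusted p = 0.00505) with the inner arrays in between, and 41.6% of the way was covered by day 7 and 51.0% by day 9.

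Scd1, the desaturase that makes monounsaturated fatty acids, was the 1 of 14 genes of fatty acid synthesis that rose, and 0 fell (median 0.04). Scd1 had 3.89, 3.48 and 3.77 on day 4, 4.45, 4.27 and 3.88 on day 7, 4.12, 4.77 and 4.12 on day 9 and 5.17, 5.44 and 6.65 on day 11, a difference of 2.04 ± 0.33 (adjusted p = 0.00295). Day 11 replicate 3 was the highest array for Car3, Adipoq and Scd1, and day 9 replicate 2 was the highest of its age for the same 3 genes and Lpl. The day 4 levels of Scd1 were under the array medians as well, with the same limit on the size of its difference. The summed level of the adipocyte genes, which includes the called Car3, Adipoq and Lpl, was 10.10 to 10.22 on day 4 and 10.72 to 11.20 on day 11. Of the defining adipocyte markers besides Adipoq, Lep stayed dim (means 2.54 and 2.72) and Cidec had means of 7.79 and 7.51. The part of attached fat in these rises was not tested.

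Fbxo32, Pcdh8 and Slc5a8 had covered at least 51.3% of their rise by day 7. Fbxo32, a ubiquitin ligase subunit known from muscle wasting, had 5.63, 4.85 and 5.55 on day 4, 6.39, 6.46 and 6.70 on day 7, 6.45, 6.95 and 6.73 on day 9 and 7.29, 6.92 and 6.53 on day 11. Its difference was 1.57 ± 0.22 (adjusted p = 0.000807), of which 74.8% was reached by day 7. The step to day 7 was called as well (1.18 ± 0.22, adjusted p = 0.0493). Pcdh8, a protocadherin cell adhesion gene, rose by 1.56 ± 0.23 (adjusted p = 0.00149) through means of 4.98, 5.78, 6.44 and 6.54. Slc5a8, a sodium-coupled carrier of short-chain fatty acids and lactate, rose by 1.34 ± 0.22 (adjusted p = 0.00268) with means of 5.80, 6.73, 7.24 and 7.14, so day 9 stood slightly above day 11. Sprr1a, a small proline-rich protein of epithelia, rose by 1.41 ± 0.26 (adjusted p = 0.00547), but its day 11 arrays spread from 5.38 to 6.73 and overlapped with days 7 and 9. Scg2, a secretory granule protein, was the only called member of 12 enteroendocrine genes and rose by 0.54 ± 0.12 (adjusted p = 0.0163). The Scg2 call was lost without day 4 replicate 2 (adjusted p = 0.0952), day 4 replicate 3 (0.0571), day 11 replicate 1 (0.0576) or day 11 replicate 2 (0.0634).

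Imprinted growth genes fell in part. Of 12 tested, 2 fell and 0 rose (median -0.24). Mest, a hydrolase-like gene expressed from the paternal allele, had 8.36, 8.15 and 8.30 on day 4, 8.19, 8.13 and 8.07 on day 7, 7.54, 7.70 and 7.80 on day 9 and 6.81, 7.79 and 7.40 on day 11, a difference of -0.94 ± 0.18 (adjusted p = 0.00977). Nnat, neuronatin, had means of 7.11, 7.07, 6.78 and 6.43 and a difference of -0.68 ± 0.11 (adjusted p = 0.00298). Igf2, the fetal growth factor, had 9.97, 10.23 and 10.36 on day 4, 10.19, 10.30 and 10.05 on day 7, 9.76, 9.70 and 9.78 on day 9 and 9.40, 9.59 and 9.77 on day 11. The end arrays did not overlap, but the difference of -0.60 ± 0.26 did not pass the test (adjusted p = 0.228). Igf2 was called with only the 12 arrays of days 4 to 11 (SE 0.12, limma adjusted p = 0.0183) and with array weights (0.0420). All 3 had their inner means between the ends, and the list's median from day 7 to day 9 was -0.31. The 10 IGF signalling partners had a median of 0.35 with all 10 above 0, and none was called. The nearest was Igfbp7, an IGF binding protein, at 0.54 ± 0.15 (adjusted p = 0.0576), which was called without day 11 replicate 1 (0.0270). Some other settings, not all, also called Igfbp7. Among them were quantile normalization (limma adjusted p = 0.0214), cyclic loess (0.0186) and the 12 arrays of days 4 to 11 (0.0443).

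Of 20 genes of cholesterol synthesis and uptake 1 fell and 0 rose (median -0.34), and 18 lay below 0. The called gene, Fdft1, encodes squalene synthase and had 8.87, 8.78 and 8.87 on day 4, 8.74, 8.60 and 8.78 on day 7, 8.37, 8.40 and 8.38 on day 9 and 8.01, 8.34 and 8.36 on day 11. It fell by 0.60 ± 0.13 (adjusted p = 0.0157) with all 6 inner arrays between the end means. The Fdft1 call was lost without day 4 replicate 3 (adjusted p = 0.0681) or day 11 replicate 1 (0.0783). Phgdh, the first enzyme of serine synthesis, fell by 1.06 ± 0.22 (adjusted p = 0.012) through means of 8.99, 8.59, 7.99 and 7.93, and Cebpg, a bZIP transcription factor, rose by 0.43 ± 0.11 (adjusted p = 0.0347). They were the 2 called members of 15 genes of the ATF4-dependent amino acid response (median -0.14). A second probe set of Cebpg differed by -0.16, and the mean of both gave 0.13 (adjusted p = 0.609). The Phgdh call was lost without day 4 replicate 2 (adjusted p = 0.0745), day 4 replicate 3 (0.058) or day 11 replicate 2 (0.0551), and that of Cebpg without any of 5 of the 6 arrays (0.0533 without day 4 replicate 1 to 0.116 without day 4 replicate 2). Prodh, the first enzyme of proline breakdown, was the 1 of 10 arginine and citrulline genes called (-0.67 ± 0.15, adjusted p = 0.0243), a call lost without day 4 replicate 2 (0.0945), day 4 replicate 3 (0.130), day 11 replicate 1 (0.0589) or day 11 replicate 2 (0.0935). Ace, the brush border peptidase that cleaves angiotensin, was the 1 of 17 digestion genes called (-0.68 ± 0.14, adjusted p = 0.0125), with its inner arrays between the end means. The Ace call was lost without day 4 replicate 2 (adjusted p = 0.0853) or day 11 replicate 2 (0.0678) and with the mean of its probe sets (0.0938).

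Of 23 genes of endocytosis and lysosomes of the suckling enterocyte 0 rose and 0 fell (limma, median 0.05). Enterocyte genes of milk lipid handling outside that list were called, among them Asah2, Fabp1 and Fabp2 as given above. Lct, the lactase of the brush border, had 11.23, 11.62 and 11.42 on day 4 and 11.34, 11.06 and 11.29 on day 11, and the groups overlapped (-0.19 ± 0.35, adjusted p = 0.820). Prdm1, the repressor that maintains the neonatal enterocyte programme, had 8.74, 8.49 and 8.77 on day 4 and 9.23, 9.04 and 8.77 on day 11. Its difference of 0.35 ± 0.12 did not pass the test (adjusted p = 0.119, and 0.0429 without day 11 replicate 3), with means of 8.78 and 8.73 on days 7 and 9. Of 21 genes of xenobiotic metabolism none was called (median 0.04), nor was any of 18 genes of fatty acid oxidation (median -0.09) or of 12 clock genes (median 0.22). Of 16 glucocorticoid-induced and metallothionein genes Mt1 alone was called. In the fit to all 18 arrays nothing was called among 7 microbe-responsive defence genes. Their median was -0.18 between the ends but 0.68 from day 7 to day 9, with 6 of 7 members higher on day 9. Il18, a member, differed by -0.80 between days 11 and 4 (limma adjusted p = 0.153). It was called with only the 6 arrays of these ages (SE 0.11, adjusted p = 0.0332) and with the 12 arrays of days 4 to 11 (SE 0.096, 0.00106).

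**Figure D4:**
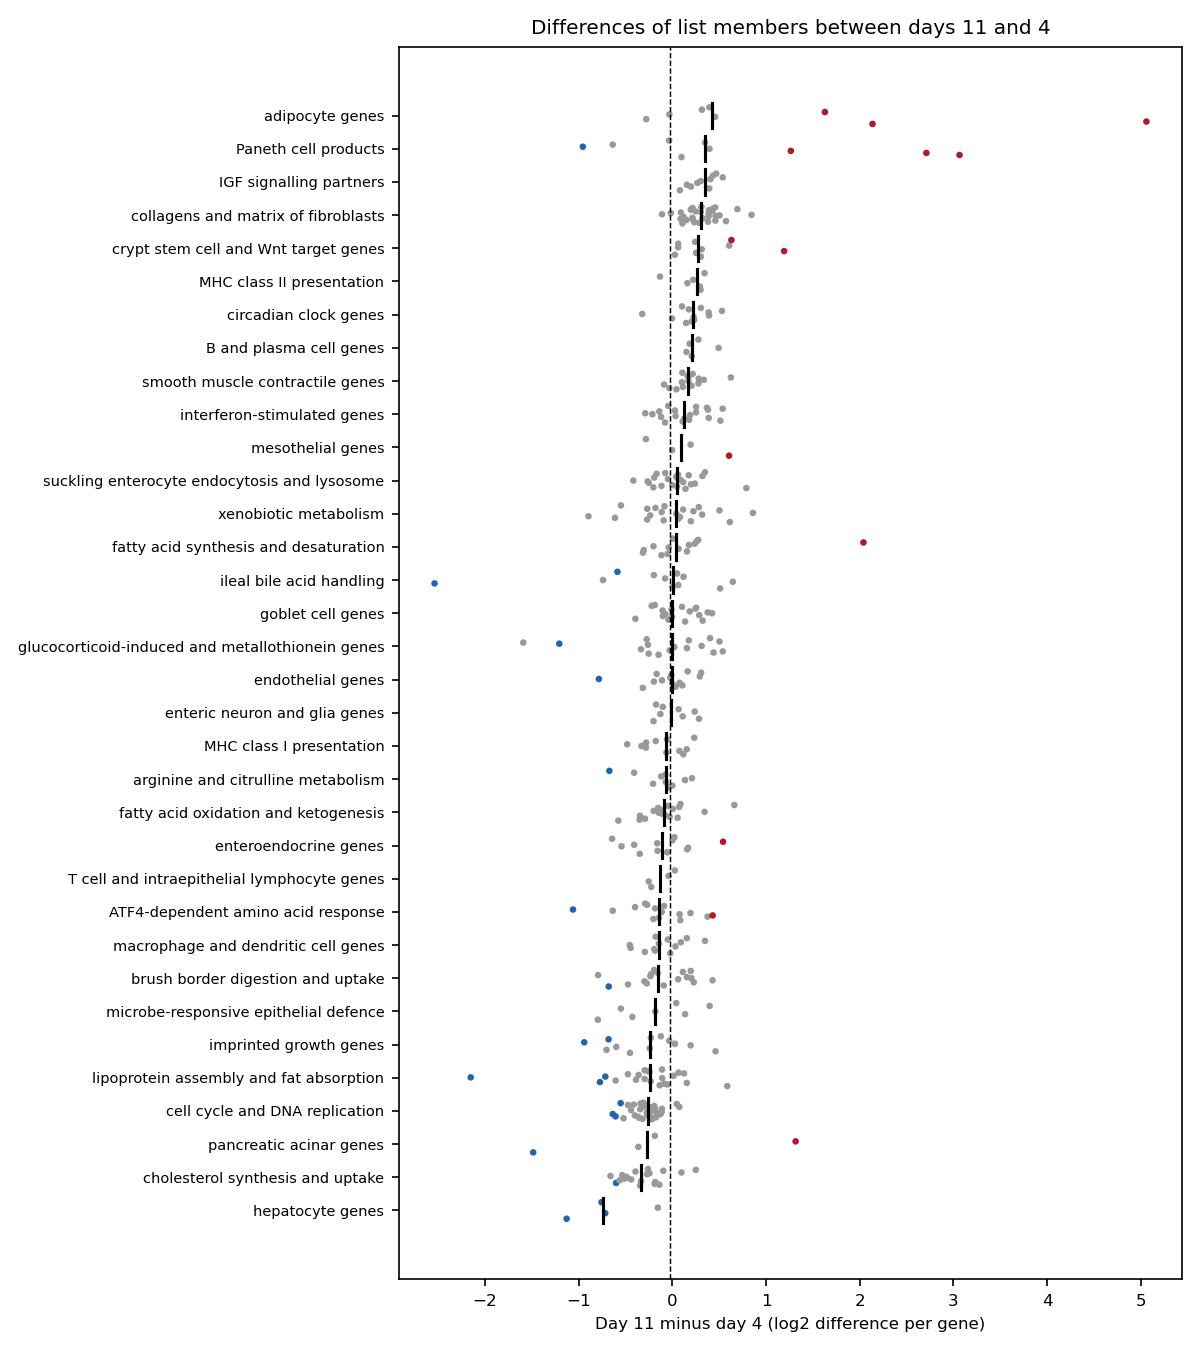
Log2 difference of day 11 minus day 4 (horizontal axis) of each tested member of the gene lists with 3 or more tested members (vertical axis, ordered by median). Red and blue points were called higher and lower, grey points were not called, black bars are list medians and the dashed line is the median of all 8630 genes (-0.03). Matrix genes lie mostly right of the line and cell cycle and cholesterol genes mostly left, with few single genes called.

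Of 30 listed genes of collagens and matrix none was called, and 28 lay above 0 (median 0.31). Matrix genes outside the list, picked after their values were seen, were called: Mgp, the matrix Gla protein, rose by 1.01 ± 0.17 (adjusted p = 0.00408), Efemp1, a fibulin, by 0.92 ± 0.16 (0.0049), Col4a5, a basement membrane collagen chain, by 1.09 ± 0.28 (0.042) and Nid1, nidogen, by 0.44 ± 0.10 (0.0265). The Mgp and Efemp1 calls held without each of the 6 arrays in turn. With the 6 arrays of days 4 and 11 alone, the Mgp call held and those of Efemp1, Col4a5 and Nid1 were lost. The Col4a5 call was also lost without any of 4 arrays, at adjusted p-values from 0.101 without day 11 replicate 1 to 0.206 without day 4 replicate 2 (0.107 without day 4 replicate 3, 0.142 without day 11 replicate 2). That of Nid1 was lost without day 4 replicate 2 (0.0853), day 4 replicate 3 (0.0987), day 11 replicate 2 (0.0696) or day 11 replicate 3 (0.0785). Mfap5, a microfibril protein, came nearest of the listed genes at 0.69 ± 0.18 (adjusted p = 0.0507, and 0.0482 without day 9 replicate 3). Eln, elastin, stood at 0.84 ± 0.24 (0.0609) and was called without day 11 replicate 2 (0.0473), without day 9 replicate 3 (0.0392) and with the mean of its probe sets (0.0212). Eln had 7.99, 8.71 and 8.39 on day 4, 8.80, 9.12 and 9.22 on day 7, 8.79, 9.19 and 8.20 on day 9 and 9.49, 8.83 and 9.31 on day 11. The list's summed level was 14.44 to 14.58 on day 4 and 14.82 to 14.96 on day 11. By intervals its median was 0.20, -0.09 and 0.18, so the middle interval ran the other way. Of 15 smooth muscle genes tested 0 were called (median 0.17), and all 15 were lower on day 9 than on day 7. The 19 with a probe set had summed levels of 14.59 to 14.70 on day 4 and 14.71 to 14.82 on day 11. Of 14 endothelial genes 1 fell: Lyve1, a hyaluronan receptor of lymphatic vessels, by 0.78 ± 0.16 (adjusted p = 0.0112), with all 6 inner arrays between the end means. The Lyve1 call was lost without day 4 replicate 3 (adjusted p = 0.0659) or day 11 replicate 1 (0.0631). No enteric neuron or glia gene of 8 was called.

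Immune cell lists held no call in the fit to all arrays. The 5 B and plasma cell genes tested had a median of 0.21. The 12 with a probe set had summed levels of 7.80 to 7.84 on day 4 and 7.98 to 8.10 on day 11. Ighm, the IgM heavy chain, differed by 0.49 ± 0.52 in that fit (limma adjusted p = 0.658). With only the 12 arrays of days 4 to 11 Ighm was called, at 0.49 ± 0.10 (limma adjusted p = 0.0175). No other setting tried gave a call for Ighm. Igha was dim, at means of 4.29 and 4.44. The 4 T cell genes had a median of -0.13, the 13 macrophage and dendritic cell genes -0.14, the 11 MHC class I genes -0.06, the 6 MHC class II genes 0.26 and the 19 interferon-stimulated genes 0.13. Of neutrophil, mast cell, erythroid and skeletal muscle genes 1 each was tested and none was called. The summed level of the neutrophil list was 7.79 to 8.11 on day 4 and 7.54 to 7.71 on day 11. Those of the mast cell, erythroid and skeletal muscle lists overlapped between these ages. The neutrophil markers S100a8 and S100a9 were dim and not tested, with means of 3.73 and 4.14 on day 4 and 2.73 and 3.06 on day 11.

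Genes first known from liver and pancreas moved in both directions. Of 4 hepatocyte genes tested 3 fell (median -0.74). Ttr, the thyroid hormone carrier transthyretin, had 12.69, 12.66 and 12.53 on day 4, 12.36, 12.28 and 12.39 on day 7, a mean of 11.98 on day 9 and 11.71, 11.97 and 11.94 on day 11, a fall of 0.76 ± 0.17 (adjusted p = 0.0223). Fga, the fibrinogen alpha chain, fell by 0.72 ± 0.16 (adjusted p = 0.0245), with all inner arrays of both genes between the end means. Afp, the fetal albumin-like carrier, had 11.22, 11.04 and 11.11 on day 4, 11.31, 11.44 and 11.36 on day 7, 11.25, 10.91 and 11.08 on day 9 and 9.99, 10.16 and 9.83 on day 11. Its difference of -1.13 ± 0.29 (adjusted p = 0.0442) lay after day 9, and the call was lost without any of the 6 arrays (0.0725 to 0.123). The Ttr call was lost without day 4 replicate 2 (adjusted p = 0.0862), day 4 replicate 3 (0.059) or day 11 replicate 1 (0.0937), and that of Fga without day 4 replicate 1 (0.0682), day 4 replicate 3 (0.107), day 11 replicate 1 (0.0751) or day 11 replicate 3 (0.0716). The summed level of the list was 13.16 to 13.27 on day 4 and 12.32 to 12.56 on day 11. Bright members such as Ttr and Afp weigh most in this linear sum, so it is no separate evidence for the list. The defining markers Alb and Ahsg stayed at means of 2.98 to 3.26. Pnliprp2, a pancreatic-type lipase that digests milk galactolipids and triglycerides, had 4.85, 4.82 and 4.89 on day 4, 4.81, 4.64 and 4.50 on day 7, 5.07, 5.38 and 5.41 on day 9 and 6.09, 5.88 and 6.53 on day 11. It rose by 1.32 ± 0.21 (adjusted p = 0.00248), and day 7 lay under day 4. It and Cela1, which fell, were the 2 called members of 4 acinar genes tested. The summed level of the 14 acinar genes with a probe set was 9.02 to 9.40 on day 4 and 8.74 to 9.04 on day 11. Cpa1 and Cela2a had means of 2.72 to 3.26 on these days. Cd200, an immune-inhibitory membrane protein, was the 1 called of 4 mesothelial genes (0.60 ± 0.16, adjusted p = 0.0428), a call lost without day 4 replicate 2 (0.168), day 4 replicate 3 (0.130), day 11 replicate 1 (0.0860) or day 11 replicate 2 (0.160).

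The brightness of the hybridization controls moved with age in part. It was higher on 2 of 3 arrays of day 4 and 1 of 3 of day 11. Of the inner ages, day 7 replicate 3 alone was in the higher group, so day 9 minus day 7 was unbalanced in the same direction. Within the arrays of the higher group the differences of day 11 minus day 4 were 4.79 for Car3, 3.51 for Defa39, 2.84 for Itln1, 1.37 for Lyz1, -2.67 for Fabp6 and -2.51 for Fabp1. Within the lower group they were 5.12, 2.64, 2.41, 1.07, -2.46 and -1.68. With the group as a block 187 genes rose and 297 fell. Sprr1a differed most between the groups among the 10 largest rises, at 0.48 and 2.09, and Abhd3 among the 10 largest falls, at -2.60 and -1.30, followed by Cdr2 at -2.05 and -0.77. The signal of the 18S ribosomal control probe sets ranged from 4.93 to 7.30 on day 4 and from 5.60 to 8.19 on day 11, and its part in the results was not tested.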

How the data were processed

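The authors deposited log2 values, 1 per probe set and array, which RMA produced per the submitters' processing notes. No source used here gives its version, its options, the array model or the scan time. Of 45101 probe sets 64 controls were left out, and 34945 had 1 gene symbol in the platform annotation; 9211 were not listed there. Each gene took its brightest probe set, by the mean over 18 arrays, among those reaching log2 6 on at least 3 arrays. limma 3.58.1 in R 4.3.3 (lmFit, eBayes) was fitted to all 18 arrays with age as a factor with 6 levels (12 residual degrees of freedom), and p-values were adjusted (Benjamini-Hochberg) over 8630 genes within a comparison. Errors of differences are standard errors with 3 arrays an age. The number of arrays limits the precision, and the table has no detection calls. Summed levels are log2 of the summed linear levels of all of a list's members with a probe set, tested or not. Promoters came from RefSeq tables.

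The comparison, its 38 gene lists and the tests were chosen with earlier results of these data known, so no list counts as independent support. The naming rule took the 10 largest rises and 10 largest falls whose arrays did not overlap and up to 3 called members of each list. From a list without calls it took up to 2 members with the smallest p, not all of which are described above. It also took up to 5 genes each way from the inner-age contrast, and Lct, Prdm1, Fabp6, Fgf15, Slc10a2, Lyz1, Lgr5, Igf2, Xist and Eif2s3y. The fit was tested on simulated data. Alternatives covered filters, probe set choice, scaling, eBayes options, array weights, fewer arrays, the hybridization group as a block, Xist as a covariate and each array left out.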

Additional observations from a re-analysis of the deposited data

How the results depend on the processing

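No paired analysis was possible because the numbers in the titles of days 4 and 11 have 0 in common, and days 7 and 9 share 1. The counts of genes higher and lower on day 11 (116 and 133) were 59 and 62 with a filter at log2 8, 348 and 511 with array weights, 28 and 24 with the 6 arrays of days 4 and 11 alone, 173 and 233 with the 12 arrays of days 4 to 11, 187 and 297 with the hybridization group as a block, and 91 and 59 without the 2 arrays of lowest weight, a setting chosen after seeing the data. Leaving out 1 array gave 50 to 151 higher and 34 to 179 lower. The balance was 171 and 120 under cyclic loess and 99 and 165 under median centring. The counts for inner against end ages (2 higher, 1 lower) were 4 and 1 with no filter, 1 and 3 at log2 8, 0 and 1 with the mean of probe sets, 1 and 1 under quantile and under cyclic loess normalization, 2 and 2 with the eBayes trend, 98 and 32 with array weights, 2 and 0 with the 12 arrays, 0 and 1 with the block, 1 and 1 with Xist as a covariate, 5 and 5 without the 2 arrays, and 0 to 4 in each direction with 1 array left out. The cause was not tested, except that fewer arrays or genes enter where they are left out.

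Of the 249 calls 34 held in every planned setting in which the gene was tested. Stricter filters dropped part of the 249 genes. At log2 8 106 of them were tested, with the filter on the 12 arrays of days 4 to 11 232, and with the filter on the mean of days 4 and 11 210. Of 44 named genes called, 27 lost the call in at least 1 setting and 0 turned their sign. Of the genes taken by the naming rule and not called, 18 gained a call in at least 1 setting, among them Eln, Mfap5, Igfbp7, Igf2, Il18, Ighm and Prdm1. The others were Pigr, described above, and Abcb1a, Acaa2, Capn9, Fcer1g, Irs1, Kit, Nr1d2, Ppara, Synm and Ugt2b5, which are not. With the 6 arrays alone the calls of, among others, Sprr1a, Cdr2, Paqr9, Lgr5, Cenpa, Ccnb2, Mest and Nnat were lost. Genes not called turned sign as follows: Ednrb to 0.012 with the mean of probe sets and 0.070 without the 2 arrays, and Eif2s3y to -2.05 with array weights, -0.15 with the block and -0.092 without the 2 arrays. With 1 array left out, Alas2 ran from -0.057 to 0.37, Anxa8 from -0.031 to 0.23, Xist from -1.37 to 2.12 and Eif2s3y from -1.60 to 1.83. Medians of the goblet, bile acid, neuron and glia, endothelial and glucocorticoid lists, all near 0, changed sign with the scaling.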

Other observations

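Probe sets that the annotation did not list carry no gene name here. Of 729 such probe sets past the filter, 8 were higher and 3 lower on day 11 in a limma fit over 14075 probe sets taken one by one, of which 278 were called. The largest rises were 1450709_at, with means of 8.17 on day 4, 8.25 on day 7, 10.59 on day 9 and 11.43 on day 11 (3.26 ± 0.14, adjusted p = 7.50e-10), and 1418550_x_at, with 6.29, 6.27, 8.51 and 9.42 (3.13 ± 0.16, adjusted p = 4.18e-09). Both stood level on days 4 and 7 and stepped up by day 9, in the interval in which the steps of Itln1, Defa39 and Lyz1 were called. The largest falls were 1448485_at, with 5.91, 5.24, 5.08 and 4.68 (-1.22 ± 0.23, adjusted p = 0.00965), and 1450864_at, with 9.01, 8.68, 8.67 and 8.45 (-0.56 ± 0.13, adjusted p = 0.0393).

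Some genes outside the naming rule, picked here after their values were seen, were also called between days 4 and 11. Fos and Egr1, immediate early transcription factors, rose by 1.24 (adjusted p = 0.0274) and 0.98 (0.0059), but their means on day 9 (6.60 and 6.64) lay under those on day 7 (7.17 and 6.81), so their means did not stand in order. The Fos call was lost without day 4 replicate 2 (adjusted p = 0.145), day 4 replicate 3 (0.113), day 11 replicate 1 (0.0850) or day 11 replicate 2 (0.105) and with the 6 arrays of these ages alone, and that of Egr1 held without each array in turn. Rbp2, the retinol binding protein of enterocytes, fell by 0.82 and had its lowest mean on day 9 (9.59 against 10.77 on day 4 and 9.94 on day 11), as Fabp1 did. The Rbp2 call was lost without day 4 replicate 2 (adjusted p = 0.0664) or day 11 replicate 2 (0.0625). Adh1, the alcohol dehydrogenase that also oxidises retinol, fell by 1.08 through means of 9.14, 8.59, 8.48 and 8.06. The Adh1 call was lost without day 4 replicate 2 (adjusted p = 0.109), day 4 replicate 3 (0.0643), day 11 replicate 1 (0.0602) or day 11 replicate 2 (0.0678). Gclc, the catalytic subunit for glutathione synthesis, rose by 0.94, with means of 8.39, 8.35, 8.87 and 9.33. The Gclc call was lost without day 4 replicate 3 (adjusted p = 0.0751) or day 11 replicate 2 (0.0582). Igf2os, a transcript antisense to Igf2, fell by 0.93 through 6.44, 6.40, 5.99 and 5.51; how the array treats strand was not checked here, so it and Igf2 cannot be told apart with certainty. Of 71 called genes with another probe set past the filter, 6 had one of the opposite sign (Abhd13, Bzw2, Cebpg, Cflar, Maf and Msl1). All 6 arrays of days 4 and 11 were under the filter level for 9 called genes.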
